A study of Mus musculus with 4 samples.

Results

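H3K9ac, an acetylation of histone H3 found at active promoters and enhancers, was examined at 8 genes that encode myeloid transcription factors. They are Sfpi1 (the gene of PU.1, named Spi1 in RefSeq), Cebpa, Cebpb, Klf2, Klf4, Klf6, Zeb2 and Rel. The genes were picked by name, and each had 1 row among the 9615 genes of the deposited table. The data come from chromatin immunoprecipitation and sequencing (ChIP-seq) of leukaemic mouse bone marrow. The tg library came from Gfi1b(fl/fl) mice with the NUP98-HOXD13 transgene and MxCre(tg), and the WT library from Gfi1b(fl/fl) mice with the same leukaemia transgene and MxCre(wt). Both groups therefore carry floxed Gfi1b and the fusion oncogene, and they differ by Mx-Cre, a Cre recombinase under an interferon-inducible promoter that acts in many haematopoietic cell types. The labels give no age, no number of animals and no induction of Cre. There was 1 library per genotype, so differences between the genotypes could not be checked in replicates and no p-value is given. Gfi1b itself, the floxed gene, had 108 reads in tg and 12 in WT, and without probe positions these reads do not check the deletion. Rabbit IgG libraries of both genotypes were not analysed here, since no column of the table matched them.

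PU.1 is an ETS-family factor that opens myeloid enhancers and, with the C/EBP factors, directs progenitors to the granulocyte and monocyte fates. PU.1 and the erythroid factor GATA1 are known to antagonise each other in progenitors. C/EBP alpha is required to form granulocyte and monocyte progenitors and is mutated in some acute myeloid leukaemias, C/EBP beta acts in stress granulopoiesis and in macrophages, and several KLF factors, ZEB2 and the NF-kappa B subunit c-Rel act later in monocytes, dendritic cells and lymphocytes.

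Several of the genes with less H3K9ac in tg are shown by the 250 bases before their start, because these promoters belong to the genes on which the results turn. The sequences are those of RefSeq on GRCm38.p6, in the direction of the gene, and the table of promoters matched 7 of the 8 genes (not Sfpi1). Capitals mark motifs searched on both strands. The core bound by PU.1 was spelled GAGGAA. The site of the C/EBP factors was spelled TTGCNNAA. That of the erythroid GATA factors was spelled AGATAA. The fourth was the kappa B consensus, and the last the core promoter element TATAAA. Cebpa is chr7:35119043-35119292 on the plus strand, Cebpb chr2:167688665-167688914 on the plus strand and Rel chr11:23770970-23771219 on the minus strand.
Cebpa: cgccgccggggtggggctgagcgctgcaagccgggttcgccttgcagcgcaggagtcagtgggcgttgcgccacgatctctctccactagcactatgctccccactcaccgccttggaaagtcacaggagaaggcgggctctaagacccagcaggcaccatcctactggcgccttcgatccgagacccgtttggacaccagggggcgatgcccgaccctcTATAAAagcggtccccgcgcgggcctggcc
Cebpb: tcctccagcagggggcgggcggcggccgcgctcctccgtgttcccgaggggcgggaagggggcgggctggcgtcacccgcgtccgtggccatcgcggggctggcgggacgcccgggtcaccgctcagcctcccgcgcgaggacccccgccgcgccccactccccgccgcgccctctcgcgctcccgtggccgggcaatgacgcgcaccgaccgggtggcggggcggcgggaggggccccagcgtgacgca
Rel: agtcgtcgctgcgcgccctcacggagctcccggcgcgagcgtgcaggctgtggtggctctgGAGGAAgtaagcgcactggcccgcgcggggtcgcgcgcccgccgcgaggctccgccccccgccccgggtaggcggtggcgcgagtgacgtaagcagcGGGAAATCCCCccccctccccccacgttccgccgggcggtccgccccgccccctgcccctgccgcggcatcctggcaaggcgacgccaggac
The Cebpa promoter holds TATAAA, which begins 30 bases before the start. The Rel promoter holds GAGGAA, beginning 189 bases before the start, and a stretch of 11 bases, beginning 92 bases before the start, that matches the kappa B consensus at 2 overlapping positions, the site of the NF-kappa B family to which c-Rel belongs. The Cebpb window holds none of the motifs marked by capitals. It is the richest in G and C of the windows shown, with 81.6% and 41 CpG, whereas Rel has 77.6% and 37 CpG, Cebpa 66.4% and 22 CpG, and the median of 32851 promoter windows is 52.4% and 6 CpG. The PU.1 core occurs in 23.3% of all windows, the C/EBP site in 9.56%, the kappa B consensus in 7.25%, the site of the GATA factors in 9.99% and the core promoter element in 12.4%. A box of the KLF and SP factors, spelled CCNCNCCC, was also searched but is not capitalised. It begins at 6 positions in the Cebpb window, 8 in Rel and 1 in Cebpa, and occurs in 45.9% of all windows. The file gives no position for its probes, the regions over which reads were counted, so no value can be placed on these promoters.

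The deposited values are log2 of reads per probe scaled to 1000000, averaged over a gene's probes. Whole reads per probe were recovered from them for all 8 genes. The library totals were 163712 reads in tg and 309649 in WT, so 1 read stands for 6.11 scaled reads in tg and 3.23 in WT. Probe lengths are not given, so a difference in level between genes is not read as a difference in H3K9ac per length. Levels as deposited, not per length, serve only to filter genes by level and to look up genes with a like pair of levels. At least 2-fold is used as a rule of size. By the deposited log2 values 5 of the 8 genes were lower in tg by this rule and 0 were higher. Of all 9615 genes, 15.8% were lower and 16.5% higher. Summed reads, recovered for 9492 genes, also put 5 of the 8 lower and 0 higher, against 14.9% of these genes lower and 14.8% higher. The median log2 ratio of the 8 genes was -1.73, and that of all genes 0.045. With ratios centred on a list of housekeeping genes, whose own median was -0.30, 1 gene (Klf6) was higher and 5 were lower. The share of all genes was not computed with this centring, so these 2 counts are no result about the 8 genes. Among the 4812 genes at or above the median level, which include 4 of the 8, 10.8% were lower, and of the 4 Sfpi1 and Rel were.

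**Figure D1:**
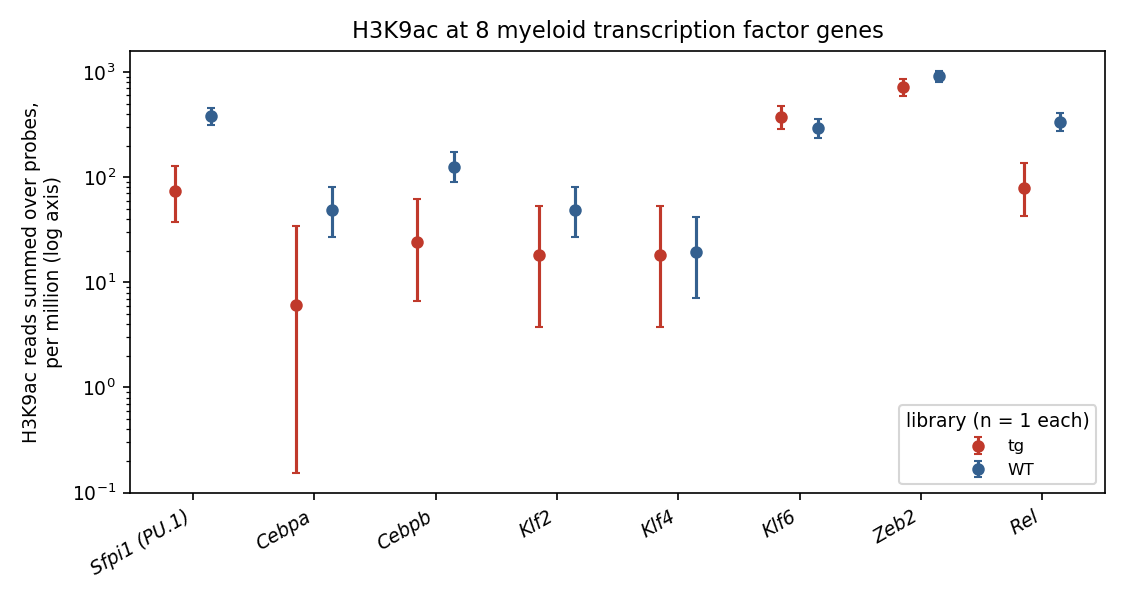
H3K9ac reads summed over each gene's probes and scaled to 1000000 (log axis) in the tg and the WT library, with exact Poisson 95% intervals that cover counting error only. The intervals of tg and WT lie apart for Sfpi1, Cebpb and Rel, and the level of Klf6 in tg is slightly above that in WT.

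Sfpi1 carried far less H3K9ac in tg. The gene lies on chromosome 2, 91082390 to 91115756 (GRCm38, ENSMUSG00000002111). Its 2 probes held 2 and 10 reads in tg, against 16 and 102 reads in WT. The taller probe holds most of the reads in each library, 83.3% in tg and 86.4% in WT. Summed and scaled, the level was 73.3 scaled reads in tg (exact Poisson 95% interval 37.9 to 128) and 381 in WT (315 to 456). This is 5.20-fold lower in tg (exact conditional binomial 95% interval 2.87 to 10.3). The taller probes alone gave 5.39-fold (2.82 to 11.6) and the lower probes 4.23-fold (0.994 to 37.9), so both were lower by a similar factor, although the interval of the lower probes includes 1. The deposited log2 level was 4.77 ± 1.64 in tg and 7.03 ± 1.89 in WT (SD over 2 probes), a log2 ratio of -2.26, and 403 of the 9615 genes had a lower ratio. In whole marrow, fewer cells of a type and less acetylation per cell cannot be told apart.

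The C/EBP genes were lower too. Cebpa, a short gene on chromosome 7 (35119293 to 35121926), has 1 probe, with 1 read in tg and 15 reads in WT. At an equal level tg would hold 7.93 reads there. The level was 7.93-fold lower in tg, with a loose interval of 1.22 to 334, since it rests on 1 tg read. The log2 ratio of -2.99 was the lowest of the 8 genes, and 148 of all genes had a lower one. A gene with 1 probe has a row only with at least 9 reads over both libraries, so Cebpa has its row through the WT reads.

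Cebpb (chromosome 2, 167688915 to 167690418) has 3 probes, which held 0, 2 and 2 reads in tg, against 7, 13 and 19 reads in WT. The highest tg probe, at 12.2 scaled reads, lay below the lowest WT probe, at 22.6. The summed level was 5.15-fold lower in tg (1.86 to 19.9), on 4 tg reads and 39 WT reads. The log2 ratio was -2.05. Tmem189, whose span overlaps the start of Cebpb, has probes with the same counts. Given the probes it has in common with Gm14320 and Gm20431, 2 of its 5 probes remain, with 0 and 2 reads in tg, against 13 and 19 in WT, and both pairs are found in Cebpb. The remaining Cebpb probe then held 2 reads in tg and 7 in WT. Tmem189 is thus not an independent measurement of this locus, and its log2 ratio was -1.53.

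**Figure D2:**
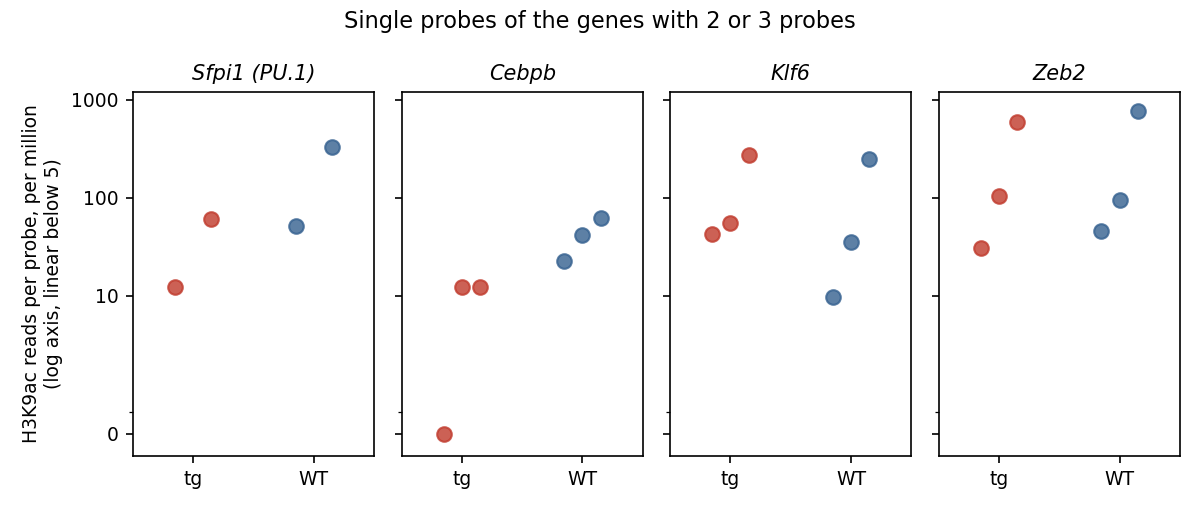
Reads of single probes, scaled to 1000000 (log axis, linear below 5), in tg and WT for the genes with 2 or 3 probes. Cebpb probes of the libraries do not overlap, the taller and the lower Sfpi1 probe are both lower in tg, and the tallest probes have ratios of 1.12 at Klf6 and 0.757 at Zeb2. Probes are ordered by height within a library, since the file does not match them between libraries.

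No direction was resolved for the KLF genes, since the counting interval of each summed ratio includes 1 and these intervals overlap. Klf2, which maintains quiescence in lymphocytes and restrains inflammatory genes in monocytes, lies on chromosome 8 (72319033 to 72321656). It had 3 reads in tg and 15 in WT at its 1 probe, 2.64-fold lower in tg (0.748 to 14.2), and the interval includes 1. Like Cebpa, Klf2 has its row through the WT reads. Klf4, a factor of monocyte differentiation on chromosome 4 (55527143 to 55532466), had 3 reads in tg and 6 in WT. Its ratio of 0.946 (0.153 to 4.43) is near 1, but the interval allows large differences in either direction. These 9 reads are the fewest with which a gene with 1 probe has a row, and a moderate difference at Klf4 was not detectable at this depth. The sign of its log2 ratio, -0.08, turned to 0.22 when centred on the housekeeping list and to 0.11 with 1 read added per probe.

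Klf6, a factor of macrophage activation on chromosome 13 (5861489 to 5870393), is the gene with the highest ratio of the 8. Its 3 probes held 7, 9 and 45 reads in tg, against 3, 11 and 76 reads in WT. The deposited log2 ratio was 0.98, just under 2-fold. Summed reads gave a ratio of 1.28 (0.911 to 1.79) and the tallest probes 1.12 (0.757 to 1.64). Averaging log2 values gives the probes equal weight, and the probes other than the tallest had 16 reads in tg and 14 in WT, a ratio of 2.16 (0.989 to 4.78). The intervals of all 3 ratios include 1.

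Zeb2, a zinc finger repressor needed for monocyte and dendritic cell development, had many reads in both libraries. Its 3 probes (chromosome 2, 44983634 to 45117395) held 5, 17 and 96 reads in tg, against 14, 29 and 240 reads in WT. The tallest probe has the same counts as the only probe of Gm13476, an unnamed gene at 45111138 to 45114087 within Zeb2 (GRCm38). The summed ratio was 0.789 (0.631 to 0.981) and the log2 ratio -0.27. Centred on the housekeeping list the log2 ratio was 0.02, so its direction depends on the scaling. The tallest probes gave a ratio of 0.757 (0.591 to 0.962) and the others 0.968 (0.551 to 1.65).

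Rel, the gene of c-Rel, was lower in tg and had the most reads of the 4 genes with 1 probe. The gene (chromosome 11, 23741514 to 23770970) had 13 reads in tg and 104 in WT, where an equal level would give 55.0 in tg. The level was 4.23-fold lower in tg (2.37 to 8.21), and the log2 ratio was -2.08. By the deposited log2 ratio the 8 genes fall in the order Cebpa, Sfpi1, Rel, Cebpb, Klf2, Zeb2, Klf4 and Klf6, from the lowest upward, and by summed reads Cebpb lies below Rel, the rest of the order being the same. Of the 28 pairs of these genes, the counting intervals of the summed ratios lay apart in 7. These were Klf6 against each of Sfpi1, Cebpa, Cebpb and Rel, and Zeb2 against each of Sfpi1, Cebpb and Rel. Genes next to each other in either order had overlapping intervals.

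**Figure D3:**
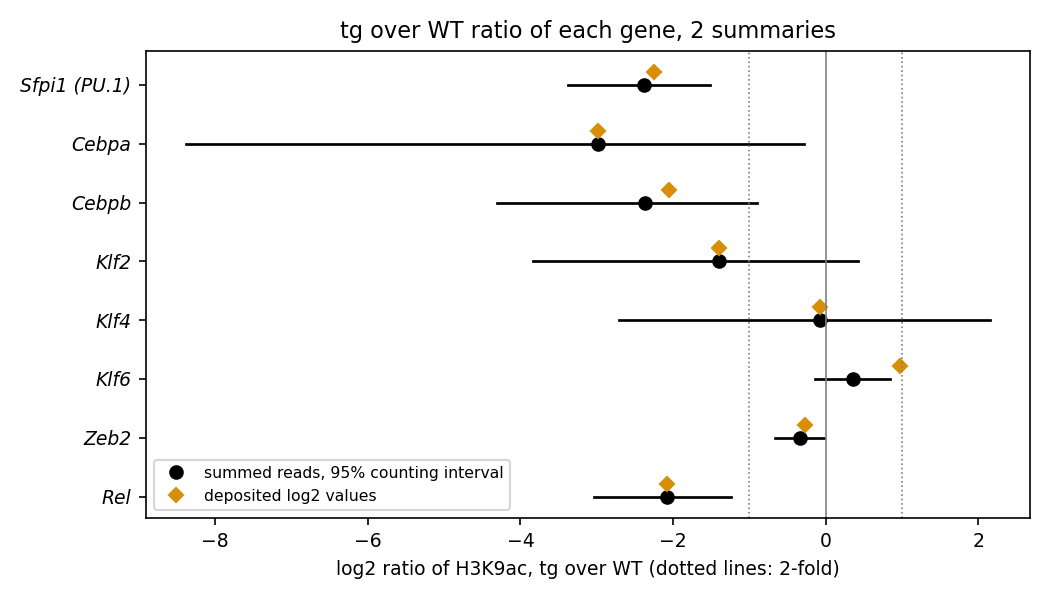
log2 ratio of tg over WT for each gene, from summed reads with 95% counting intervals (circles, lines) and from the deposited log2 values (diamonds). Sfpi1 and Rel lie wholly beyond 2-fold lower, the intervals of Klf2, Klf4 and Klf6 include 0, and Klf6 is the gene for which both summaries differ most.

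The genes next to the 8 were beyond 2-fold in few cases. Within 100000 bp the 8 genes had 23 listed neighbours, of which 4 (17.4%) were higher and 2 (8.70%) lower in tg by 2-fold or more, against 16.5% and 15.8% of all genes, so the counts are no result about the neighbours. Of the 23, 3 pairs have identical values (Psmc3 and Gm13778, Nr1h3 and Gm13783, Pex13 and Pus10), which leaves 20 distinct measurements, 3 of them higher and 2 lower. Around Sfpi1, 7 neighbours were listed, 3 of them higher and 0 lower. The proteasome gene Psmc3, which ends 16021 bp away, had 18 reads in tg and 17 in WT, just past 2-fold higher with an interval of 0.974 to 4.14 that includes 1. Madd, on the other side, had a ratio of 0.981 (0.475 to 1.94). Next to Cebpa, its family member Cebpg, 62790 bp away, had 24 reads in tg and 38 in WT, a ratio of 1.19 (0.685 to 2.04). The interval of Cebpg overlaps that of Cebpa.

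Around Cebpb the neighbours diverged. Ube2v1, 56820 bp away, was 2.42-fold higher in tg (1.56 to 3.79) on 50 reads in tg and 39 in WT. Gm14321, an unnamed gene 87049 bp on the other side of Cebpb (chromosome 2, 167777467 to 167782569), had 1 read in tg and 52 in WT. It was 27.5-fold lower in tg (4.72 to 1107), with the lowest log2 ratio of the 23 neighbours, -4.78. Tmem189 was the other lower neighbour, and it has probes in common with Cebpb. Around Rel, Pus10 and Pex13 share their values, with 19 reads in tg and 66 in WT, a ratio of 0.545 (0.309 to 0.918), and Papolg had 0.679 (0.341 to 1.28). All 3 were below 1 but less than 2-fold lower.

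**Figure D4:**
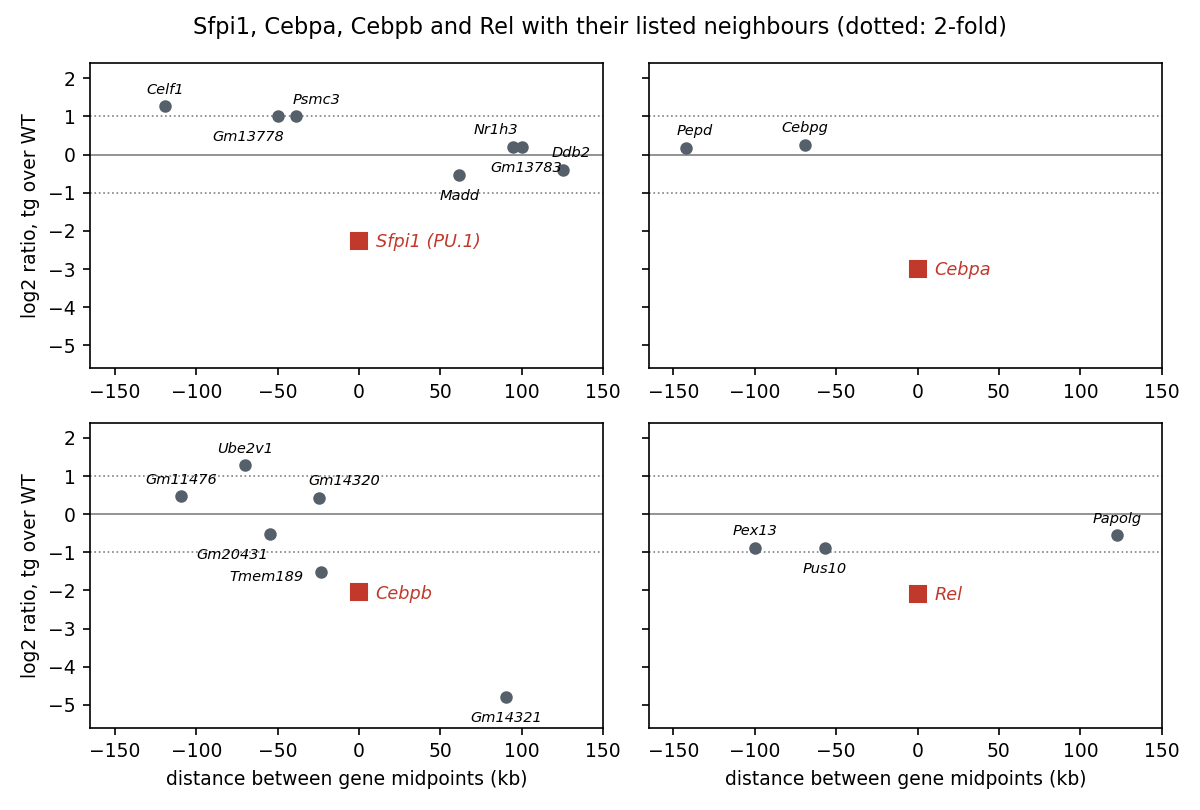
Deposited log2 ratio of tg over WT at Sfpi1, Cebpa, Cebpb and Rel (squares) and at the genes listed within 100000 bp (circles), by the distance between gene midpoints in kb. Gm14321 lies below Cebpb, all other neighbours of the 4 genes lie above them.

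The gene whose pair of levels was nearest to that of each factor was looked up, by the distance of the 2 deposited log2 values from those of the factor. With 2 libraries this is a coarse likeness. For Sfpi1 it was Irf8, a transcription factor of monocytes and dendritic cells, at a distance of 0.071 log2 units, with 29 reads in tg and 407 in WT over 4 probes. For Cebpb it was the lysozyme gene Lyz2, at 0.10, and for Rel the AP-1 gene Jun, at 0.13, with 14 reads in tg and 109 in WT. For Zeb2 there were 3 genes tied at 0.0095 (Uchl5, Ckap5 and Smg1). For Cebpa 5 genes, for Klf2 10 and for Klf4 25 had identical counts, and for Klf6 6 genes were tied, so no gene stands out for these.

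Most genes listed as partners or upstream factors of PU.1 and C/EBP were lower as well. Of 25 listed partners and upstream factors 15 had a row, 9 were lower in tg by 2-fold or more and 0 higher, against 15.8% and 16.5% of all genes, with a median log2 ratio of -1.06. Irf8, which binds DNA with PU.1, was 7.42-fold lower (5.09 to 11.2). The ETS factor gene Fli1 had 10 reads in tg and 99 in WT, 5.23-fold lower (2.73 to 11.3). Jun was 4.12-fold lower (2.35 to 7.78) and Fosl2, another AP-1 gene, 3.44-fold (1.44 to 9.93). Cbfb, the partner of the RUNX factors, was 2.35-fold lower (1.12 to 5.51) and Myb 2.42-fold (1.61 to 3.76). The PU.1-cooperating gene Egr2 had 0 reads in tg and 12 in WT, 2.11-fold lower against a floor of 3 reads in tg. This fold leaves out the counting error of the WT reads and is not a lower bound. Egr2 has 1 probe and has its row through the WT reads, as does Fos. Fos, on 1 read in tg and 9 in WT, was 4.76-fold lower with an interval (0.659 to 209) that includes 1, and Etv6 had a log2 ratio of -1.06 over 7 probes. Runx1 and Irf2 were among the 6 within 2-fold, with log2 ratios of -0.05 and -0.14. The others were Junb (-0.75), Trib1 (-0.58), Batf (-0.45) and Id2 (-0.13).

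Genes listed as targets of PU.1 and C/EBP were mostly lower. Of 49 listed 26 had a row, 18 were lower in tg by 2-fold or more and 1 was higher, against 15.8% and 16.5% of all genes. The median log2 ratio was -1.73. The inhibitory receptor gene Sirpa had 0 reads in tg and 90 in WT, 15.9-fold lower against a floor of 3 reads in tg. Ly86, which encodes a partner of a toll-like receptor homologue, had 2 reads in tg and 83 in WT, 21.9-fold lower (5.89 to 184). Tlr2, a toll-like receptor gene with 1 read in tg and 22 in WT, was 11.6-fold lower (1.88 to 480). Csf2ra, a chain of the GM-CSF receptor, had 1 read in tg and 20 in WT and was 10.6-fold lower (1.69 to 438). Sirpa, Tlr2 and Csf2ra have 1 probe each and have their rows through the WT reads. The gene that was higher is Csf1r, the macrophage colony-stimulating factor receptor, a textbook PU.1 target, with 9 reads in tg and 4 in WT. It was 4.26-fold higher (1.19 to 18.9), and with 1 probe it has its row through the tg reads. Vav1 (44 reads in tg and 98 in WT, log2 ratio -0.23) and Itgb2 (-0.08) were near equality. Among the 6 targets at or above the median level of all genes, 4 were lower and 0 higher, against 10.8% and 10.2% of all genes at that level.

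Of 17 listed regulators of NF-kappa B, the pathway of c-Rel, 13 had a row. In tg 5 (38.5%) were at least 2-fold lower and 1 (7.69%) higher, against 15.8% and 16.5% of all genes, with a median log2 ratio of -0.78. At or above the median level of all genes 2 of 7 were lower and 1 higher, with a median of -0.40, where that of the housekeeping genes was -0.41. Of all genes at that level 10.8% were lower and 10.2% higher. Nfkbid, a nuclear I-kappa-B protein gene, had 3 reads in tg and 45 in WT, 7.93-fold lower (2.55 to 39.9). The kinase gene Ikbkb was 2.58-fold lower (1.25 to 6.02), Ikbkg, its regulatory subunit, 2.32-fold (1.25 to 4.62), and Map3k14 had a log2 ratio of -1.04 over 5 probes. Nfkbiz was 1.92-fold lower by summed reads (1.19 to 3.24), and its deposited log2 ratio was -1.35. Chuk, the gene of the other I-kappa-B kinase, was 3.78-fold higher (2.09 to 7.08), on 36 reads in tg and 18 in WT.

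Among the listed relatives of the 8 genes, which do not cover the ETS family of PU.1, the shares beyond 2-fold were near those of all genes. Of 24 genes listed as other ETS, C/EBP, KLF, ZEB and REL family genes 17 had a row. None of the 17 is an ETS gene, since Spib and Spic had no row. The ETS genes Fli1 and Etv6 were counted among the partners above. Of the 17, 4 (23.5%) were at least 2-fold higher and 3 (17.6%) lower in tg, against 16.5% and 15.8% of all genes. The median log2 ratio was 0.05, and by summed reads, for 16 of them, -0.31. All 4 that were higher are KLF genes, the family with the most genes in this list. Klf7, Klf10, Klf13 and Klf16 were within 2-fold. Klf3, a repressor, had 58 reads in tg and 30 in WT, 3.66-fold higher (2.31 to 5.89), and Klf1, the erythroid KLF, 2.44-fold (1.49 to 4.04). Klf9 (9 reads in tg and 2 in WT) and Klf5 (7 reads in tg and 2 in WT) rest on few reads. Lower were Relb, an NF-kappa B subunit gene (3 reads in tg and 27 in WT, 4.76-fold, 1.46 to 24.5), Cebpz (5.29-fold, 1.64 to 27.1) and Klf11 (log2 ratio -1.58). Cebpz is in the list by its symbol and is not one of the C/EBP factors. The C/EBP relatives Cebpg and Ddit3 were within 2-fold, with log2 ratios of 0.26 and 0.66. The other NF-kappa B subunit genes were within 2-fold, with deposited log2 ratios of 0.05 for Rela, 0.08 for Nfkb1 and -0.74 for Nfkb2. By summed reads Rela had 28 in tg and 100 in WT, 1.89-fold lower in tg with an interval (1.23 to 2.98) that leaves out 1. The summed ratios were 0.739 for Nfkb1 (0.482 to 1.11) and 0.630 for Nfkb2 (0.205 to 1.66).

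Most genes listed as factors of the erythroid lineage, the receptor gene Epor among them, were higher. All 15 listed genes had a row, 10 were at least 2-fold higher and 0 lower in tg, against 16.5% and 15.8% of all genes. The median log2 ratio was 3.08. Sox6 had 56 reads in tg and 4 in WT, 26.5-fold higher (9.78 to 101). Zfpm1, the gene of the GATA1 cofactor FOG1, had 119 reads in tg and 23 in WT, 9.79-fold higher (6.22 to 16.0). Gfi1b had 108 reads in tg and 12 in WT. Epor, the erythropoietin receptor gene, had 28 in tg and 0 in WT, 17.7-fold higher against a floor of 3 reads in WT. Gata1 itself had 13 reads in tg and 1 in WT. Epor and Gata1 have 1 probe each and have their rows through the tg reads. Within 2-fold were Foxo3 (log2 ratio 0.75), Gata2 (0.48), Cbfa2t3 (0.39), Bcl11a (-0.10) and Lyl1 (-0.15). The medians of this list and of the 8 factor genes had opposite signs, and an antagonism of PU.1 and GATA1 was not tested. Of the 8 erythroid factors at or above the median level of all genes, 5 were higher and 0 lower, against 10.2% and 10.8% of all genes at that level.

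**Figure D5:**
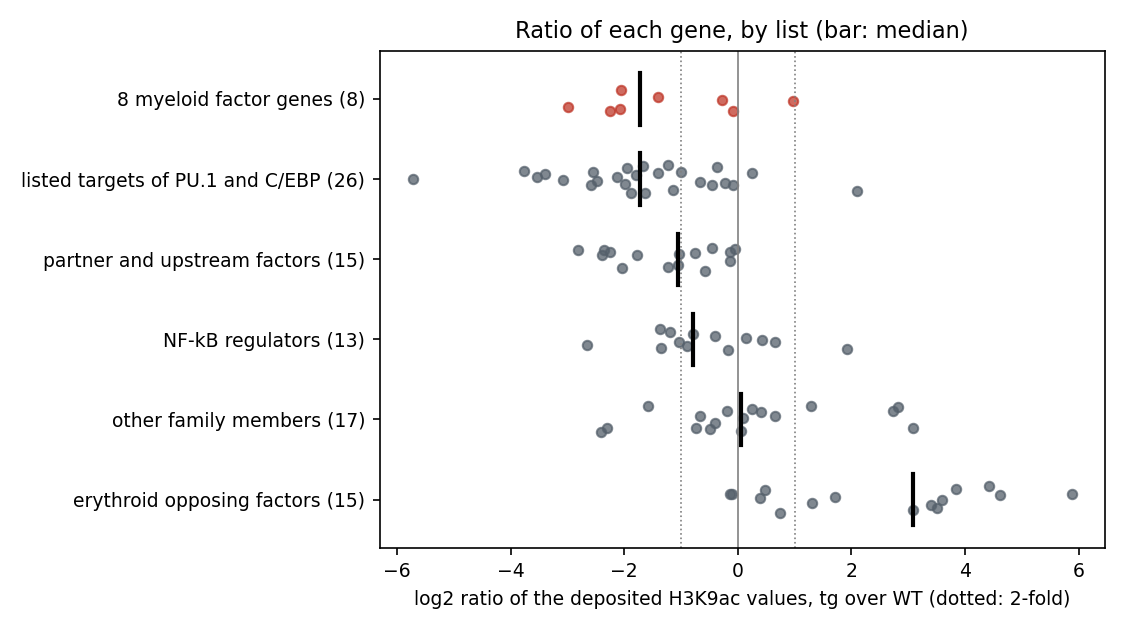
Deposited log2 ratio of tg over WT for every gene of each list with a row (points; bars are medians, vertical spread only separates points). The medians are -1.73 for the 8 factor genes and for the targets, and 3.08 for the erythroid factors.

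Cell type markers are given beside these results, and part of them are the same genes as in the lists above. Of 20 neutrophil markers 3 had a row (Csf3r, Mpo and Prtn3), all of them at least 2-fold lower in tg and all counted already among the targets, with a summed level of 30.5 scaled reads in tg and 187 in WT. On 2 tg reads each, the intervals of Csf3r (3.17-fold lower, 0.706 to 29.2) and Prtn3 (3.97-fold, 0.922 to 35.7) include 1. Mpo was 16.4-fold lower (2.73 to 668) on 1 tg read. Of 15 monocyte and macrophage markers, Klf4 among them, 8 had a row, 4 were lower and 1 (Csf1r) was higher, with a median log2 ratio of -0.87 and a summed level of 434 in tg and 1922 in WT. Irf8 gives most of the WT sum, and without it the sums were 257 in tg and 607 in WT. The 4 that are in no other list (Ctss, Cx3cr1, F13a1 and Ms4a6c) had 171 in tg and 307 in WT, and 2 of them were lower and 0 higher. Of 25 erythroid markers 15 had a row and 14 were higher, with 3060.2 in tg and 536 in WT. Without Epor, Gata1, Hemgn and Klf1, which are in other lists, 10 of 11 were higher, with 2327 in tg and 413 in WT. Alas2, Epor, Hbb-b1 and Rhag were at 0 reads in WT, and none of the 15 was at 0 in tg. These genes at 0 have 1 probe each, and such a gene has a row only with at least 9 reads over both libraries. They have their rows through the tg reads, so their zeros are no result. The B cell markers (2 of 16 with a row) had 220 in tg and 149 in WT, and the T and NK cell markers (2 of 16) 61.1 in tg and 51.7 in WT, and none of these 4 was beyond 2-fold. For comparison, 15.8% of all genes were lower and 16.5% higher by the same 2-fold rule. The part of these cell types in the values of the 8 genes was not tested.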

How the data were processed

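H3K9ac and rabbit IgG ChIP-seq libraries were made from marrow of both genotypes, 4 samples in all. Per the labels' protocols, red cells were lysed and the chromatin was fixed and sonicated. The submitters' processing notes name CASAVA 1.8.2, BWA, SAMtools and FastQC, and the builds mm10 and GRCm38. How probes were placed, how duplicates were treated and which program made the table is not stated in those notes. The authors' deposited values are, per the file headers, a mean with its SD over the probes of each gene, and they are on a log2 scale. The number of probes per gene is another deposited column.

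The scale was worked out from the values. In the 7423 genes with 1 probe, 100% of linear values were whole reads within 0.01 of a read in each library, with 0 reads entered as 0.9 of a read. Counts per probe were solved from mean and SD for genes with up to 4 probes (9492 genes, 98.7%). The solver was tested on simulated data. Folds use reads summed over probes, with exact conditional binomial 95% intervals, and levels exact Poisson intervals. Both cover counting error only, since each genotype has 1 library. Reads that carry no molecular identifier can be copies of 1 molecule, which would make these intervals too narrow. A count of 0 allows up to 3 reads, 18.3 scaled reads in tg and 9.69 in WT. The median gene with 1 probe had 11 reads in tg and 22 in WT. Python 3.11.15, numpy 2.4.6, pandas 2.3.3 and scipy 1.17.1 were used.

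Named were the 8 genes, up to 4 genes per list with the largest log2 ratio among those with at least 20 reads, the neighbours within 100000 bp and the nearest pattern. Genes named beyond this were chosen after their values were seen, and so were the marker sums without Irf8 or without genes of other lists. The 8 genes and the 11 lists were chosen with earlier results of these data known, so their counts are descriptions and not independent support.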

Additional observations from a re-analysis of the deposited data

How the results depend on the processing

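The lower log2 ratios of Sfpi1, Cebpa, Cebpb, Klf2 and Rel kept their direction and stayed beyond 2-fold with summed reads, the tallest probe, 1 read added per probe, and centring on all genes or on the housekeeping list. Cebpa, Klf2 and Rel have 1 probe each, so summed reads and the tallest probe repeat their deposited ratio and check nothing there. Centring on all genes moves every ratio by the same small amount, 0.045. Klf6 was the gene whose ratio moved, to a log2 ratio of 0.36 with summed reads and 0.16 with the tallest probes, because the equal weight of low probes is then removed. The count of the 8 genes at least 2-fold higher was 1 in place of 0 when centred on the housekeeping list and with a threshold of 1.5-fold, in each case Klf6. At 1.5-fold 28.7% of all genes were higher, and with the housekeeping centring that share was not computed.

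Restricting to genes at or above the median level leaves fewer genes (4 of the 8). It left 2 factor genes lower (Sfpi1 and Rel), 5 partners lower, 2 NF-kappa B regulators lower, 4 targets lower and 0 higher, 1 family gene higher and 1 lower, and 5 erythroid factors higher. Of all genes at or above that level, 10.8% were lower and 10.2% higher. Summed reads exist for 12 of the 15 erythroid factors. Of these 12, 6 were higher by summed reads and 7 by the deposited values (Nfe2 is 1.97-fold higher by summed reads), and the others of the 10 higher by deposited values are Lmo2, Tal1 and Ldb1, for which reads were not recovered. Of 86 recomputed values 73 stayed within counting error or within 1.5 times of the count, and 13 moved. The 73 include values that could not move, such as summed reads and the tallest probe for genes with 1 probe. No paired analysis was possible because each genotype has 1 library and no test was run. Depth limits Klf4, Klf2 and Cebpa most, with 3, 3 and 1 tg reads.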
